A study of Mus musculus with 8 samples.

Results

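The pyruvate dehydrogenase system was described through 10 genes: the catalytic genes Pdha1, Pdhb and Dlat, the kinase genes Pdk1 to Pdk4, and the phosphatase genes Pdp1, Pdp2 and Pdpr. They were chosen by name from 19938 genes measured with 1 symbol. Each of the 10 was represented by 1 transcript cluster, the unit in which this array's probes are summarised. The samples were gastrocnemius muscles, a mixed calf muscle, of 8 male mice aged 6 months, kept on chow and fasted for 5 h. The 4 knockouts, labelled Gcn5skm-/-, had the genotype HSAcre Tg/0 with Gcn5 L2/L2. The 4 wild types, labelled Gcn5skm+/+, were HSAcre 0/0 with Gcn5 L2/L2 and so carried the same floxed alleles without Cre. Cre under the HSA promoter acts in muscle fibres, so other cells of the muscle kept Gcn5, an acetyltransferase encoded by Kat2a. Effects of the Cre transgene and of the deletion cannot be told apart. There was 1 array per mouse, so precision is set by 4 animals a genotype. Values are RMA values on the log2 scale, on which a difference of 1 is a doubling.

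Pyruvate dehydrogenase is the mitochondrial complex that turns pyruvate into acetyl-CoA and so commits carbon from glucose to oxidation. Kinases of the PDK family switch it off by phosphorylating its E1 alpha subunit, and pyruvate dehydrogenase phosphatases switch it on again. In skeletal muscle, Pdk4 is known to be induced by fasting and by high fatty acid supply through PPAR, ERR and FoxO transcription factors, which spares glucose. The arrays measured transcripts only, not phosphorylation or enzyme activity.

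Pdk4 was the only one of the 10 genes whose genotypes did not overlap, and Pdp2 had the smallest limma p value of the 10. Pdk2 is the other kinase long known as abundant in muscle. The upstream sequences of Pdk4, Pdk2 and Pdp2 are shown here for these reasons. Each is the 250 bases before the annotated start in RefSeq, build GRCm38.p6, written 5′ to 3′ on the gene's own strand, at chr6:5496279-5496528 (minus strand) for Pdk4, chr11:95041372-95041621 (minus) for Pdk2 and chr8:104591222-104591471 (plus) for Pdp2. Capitals mark matches on either strand to the CCAAT box, the E-box CACGTG and the GC box GGGCGG.
Pdk4: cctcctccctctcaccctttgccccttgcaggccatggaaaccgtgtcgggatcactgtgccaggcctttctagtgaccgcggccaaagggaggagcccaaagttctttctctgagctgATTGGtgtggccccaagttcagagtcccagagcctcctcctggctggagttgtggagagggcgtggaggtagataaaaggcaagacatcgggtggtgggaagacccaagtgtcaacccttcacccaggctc
Pdk2: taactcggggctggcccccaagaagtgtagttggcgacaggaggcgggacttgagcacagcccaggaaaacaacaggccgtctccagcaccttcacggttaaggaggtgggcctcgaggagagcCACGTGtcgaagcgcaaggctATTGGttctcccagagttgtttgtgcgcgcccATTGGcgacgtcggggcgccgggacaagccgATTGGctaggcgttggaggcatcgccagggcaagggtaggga
Pdp2: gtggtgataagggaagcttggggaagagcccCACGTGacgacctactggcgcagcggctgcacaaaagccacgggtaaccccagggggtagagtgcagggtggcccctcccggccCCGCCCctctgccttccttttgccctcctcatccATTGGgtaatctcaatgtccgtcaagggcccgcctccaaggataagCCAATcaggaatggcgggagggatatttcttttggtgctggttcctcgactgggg

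Promoter windows were found for 9 of the 10 genes, Pdp1 being without an entry, in 11 windows. On either strand, CCAAT occurred in 5 of the 11 windows (1 each of Pdhb, Pdk2, Pdk3, Pdk4 and Pdp2), and in 33.8% of all 32851 windows of this length. Pdk2 held 3 such matches and Pdk4 held 1, which ended 127 bases before its start. GGGCGG occurred in 6 of the 11 (32.7% of all windows) and CACGTG in 3 of the 11, those of Pdk2, Pdp2 and Pdpr (6.02%). The letters AGGTCA, the core of many nuclear receptor elements including those of PPAR and ERR, occurred in 0 of the 11 windows and in 14.0% of all windows. The FoxO letters TGTTTAC also occurred in 0 of the 11 and in 3.17% of all. No match says only that these letters are not in these 250 bases.

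Kat2a checked the labels. It measured 6.50, 6.46, 6.45 and 6.43 in wild types 1 to 4 and 5.81, 5.84, 5.79 and 5.73 in knockouts 1 to 4. Every knockout lay below every wild type, with a difference of -0.66 (SE 0.08, limma adjusted p = 0.0319). When an array other than wild type 1 or 2 was left out, the adjusted p was 0.0619 to 0.137 and the difference -0.68 to -0.64. It is not known here if its probes fall within the deleted exons. Array medians lay between 4.61 and 4.72. Wild type 2 was the array least like the rest, with a mean correlation of 0.987 against 0.989 to 0.992. The fast-fibre myosin Myh4 was bright on all 8 arrays (12.18 to 12.29). The slow-fibre myosin Myh7 ranged from 5.21 to 9.24, as described further on. The adipocyte gene Adipoq ranged from 4.89 to 7.06.

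The comparison asked whether transcripts of this system differ when muscle fibres lack Gcn5. None of the 10 genes rose or fell at a 5% false discovery rate over all genes (limma adjusted p from 0.867 to 0.982), where 0.0150% of all genes passed. At an unadjusted p under 0.05, 0 of the 10 passed against 5.73% of all genes. The differences, knockout minus wild type, ran from -0.10 for Pdk3 to 0.21 for Pdp2, with 5 genes on each side of 0. Their median was 0.000318, beside -0.01 over all genes. The 95% interval of each of the 10 differences held 0, and all 10 lay within 1.5-fold in either direction. The widest reach upward was 1.34-fold for Pdp1 and the widest downward 0.803-fold for Pdpr. These intervals are not adjusted for the number of genes. The within-genotype SD had a median of 0.128 over the 10 genes and 0.150 over all genes.

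**Figure D1:**
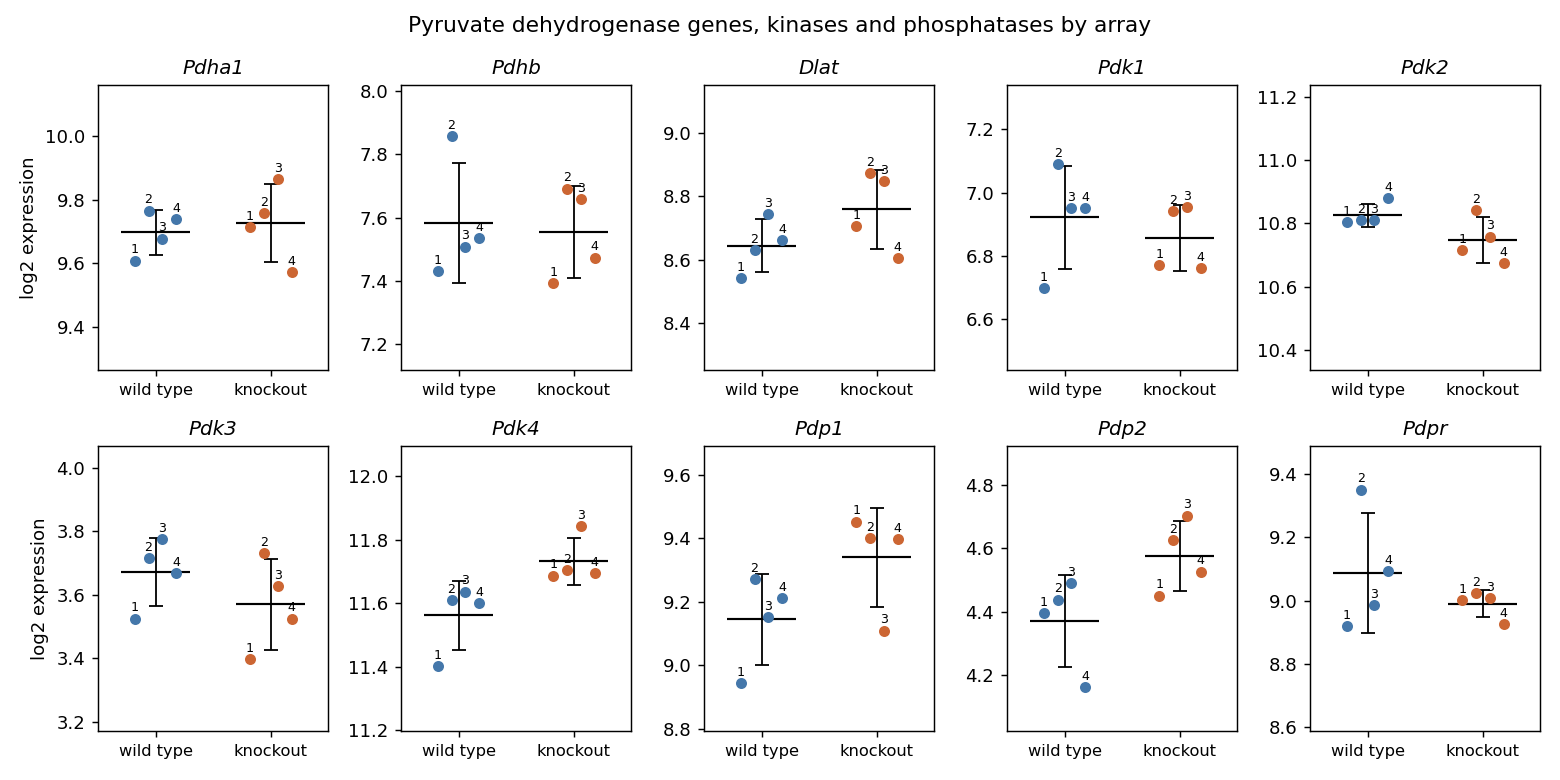
Log2 expression of each of the 10 genes on the 8 arrays, wild type in blue and knockout in orange, numbered by replicate, with the mean as a line and bars of 1 SD. Every panel spans the same range of log2 units. Only for Pdk4 do the genotypes not overlap, with wild types up to 11.64 and knockouts from 11.69.

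**Figure D2:**
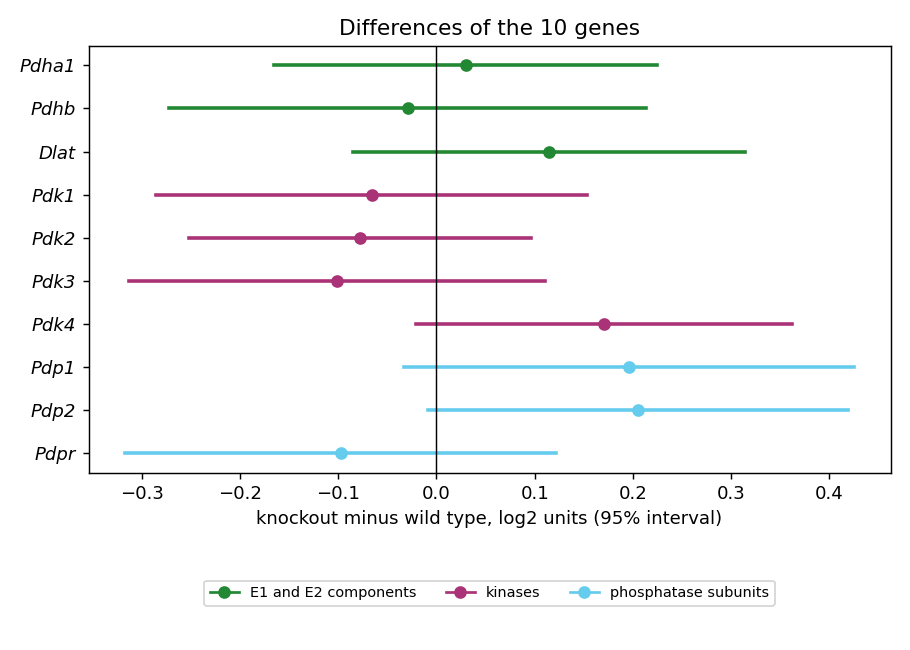
Knockout minus wild type for each gene in log2 units, with the 95% interval from limma, coloured by role. All 10 intervals cross 0, and the points lie between -0.10 and 0.21.

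The catalytic genes were close to level between genotypes. Pdha1, which encodes the E1 alpha subunit that the kinases phosphorylate, measured 9.61, 9.77, 9.68 and 9.74 in wild types 1 to 4. It measured 9.71, 9.76, 9.87 and 9.57 in knockouts 1 to 4. Knockouts held both the highest and the lowest value, and the means of 9.70 ± 0.07 and 9.73 ± 0.12 (SD, n = 4 each) differed by 0.03 (95% interval -0.17 to 0.22).

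Pdhb, the E1 beta subunit, measured 7.43, 7.86, 7.51 and 7.54 in wild types and 7.39, 7.69, 7.66 and 7.47 in knockouts. Wild type 2 stood above the other arrays, and the groups otherwise lay over each other (difference -0.03, 95% interval -0.27 to 0.21). Without wild type 2, the array least like the others, the Pdhb difference was 0.0623. Dlat, the E2 acetyltransferase core, measured 8.54, 8.63, 8.74 and 8.66 in wild types and 8.71, 8.87, 8.85 and 8.61 in knockouts. Knockouts 2 and 3 lay above all wild types, but knockouts 1 and 4 lay among them. The Dlat means were 8.64 ± 0.08 and 8.76 ± 0.13, a difference of 0.11 (SE 0.09, limma adjusted p = 0.900), or 0.0761 without knockout 2.

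Among the kinases, Pdk4 was the gene whose groups separated. It measured 11.40, 11.61, 11.64 and 11.60 in wild types 1 to 4 and 11.69, 11.70, 11.84 and 11.69 in knockouts 1 to 4. The lowest knockout thus lay just above the highest wild type, wild type 1 was the low end of its group and knockout 3 the high end. The means were 11.56 ± 0.11 and 11.73 ± 0.07 (SD, n = 4 each), a difference of 0.17 (SE 0.09) or 1.13-fold, with a 95% interval from 0.986 to 1.28-fold. Adjusted over all genes this was not past the threshold (limma adjusted p = 0.869). The unadjusted limma p was 0.0762. The exact two-sided permutation test of 4 against 4 arrays gave p = 0.0286, the smallest this design allows. Any gene whose groups do not overlap gets this p, so it only restates the separation. It is not adjusted for the 10 genes. Groups did not overlap for 1 of the 10 genes, and for 3.62% of all genes (1.48% with every knockout higher). Without wild type 1 the Pdk4 difference was 0.12.

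Of 12 macrophage markers measured, 11 had a difference above 0, Cd163 was at -0.11, and 0 passed over all genes. Their mean level was 5.70 to 5.84 in wild types and 5.89 to 6.58 in knockouts. The highest value, in knockout 4, was carried by Gpnmb (9.09), Lgals3 (7.75) and Cd68 (7.35). Without these 3 the means were 5.76 to 5.91 in wild types and 5.95 to 6.09 in knockouts, a choice made after the values were seen. For the defining marker Adgre1, every knockout (4.90 to 5.04) lay above every wild type, the highest of which was 4.84. Adgre1 was dim, with a mean of 4.86, below the median gene's 4.98. Groups did not overlap for 3 of the 12 markers (Adgre1, Cd68 and Lgals3), and for 3.62% of all genes. At an unadjusted limma p under 0.05, 6 of the 12 passed, against 5.73% of all genes. Among the other marker lists, 7 of 8 slow-fibre, 6 of 10 fast-fibre, 5 of 6 fibroblast and 3 of 3 measured erythroid genes were higher. Lower were 6 of 8 endothelial and 3 of 4 measured Schwann cell genes. Adipocyte genes were higher for 3 and lower for 3. In each of these lists 0 genes passed over all genes. The part of macrophages in the Pdk4 values was not tested. In these bulk samples, a change in the number of cells of a type and a change in RNA per cell cannot be told apart.

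The other kinase genes had differences below 0 and overlapping groups. Pdk2 measured 10.80, 10.81, 10.81 and 10.88 in wild types and 10.72, 10.84, 10.76 and 10.67 in knockouts. Knockouts 1, 3 and 4 lay below all wild types and knockout 2 among them (difference -0.08, SE 0.08, limma adjusted p = 0.926). Its 95% interval, from 0.840 to 1.07-fold, was the narrowest of the 10.

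Pdk1, a kinase gene known as a target of the hypoxia factor HIF-1, measured 6.70, 7.09, 6.95 and 6.95 in wild types and 6.77, 6.94, 6.95 and 6.76 in knockouts. Wild types held both its extremes, and the difference was -0.07 (95% interval -0.29 to 0.15). It was -0.0104 without wild type 2, -0.0341 without knockout 4, -0.0376 without knockout 1 and -0.14 without wild type 1. Pdk3 measured 3.52, 3.71, 3.78 and 3.67 in wild types and 3.40, 3.73, 3.63 and 3.53 in knockouts (difference -0.10, limma adjusted p = 0.919). The Pdk3 difference was -0.0437 without knockout 1, -0.0661 without wild type 3 and -0.15 without knockout 2. These Pdk3 values lay below the median gene's 4.98.

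The phosphatase genes did not share a direction. Pdp1, the calcium-stimulated catalytic isoform known from muscle, measured 8.94, 9.27, 9.15 and 9.21 in wild types 1 to 4 and 9.45, 9.40, 9.11 and 9.40 in knockouts 1 to 4. Knockouts 1, 2 and 4 lay above every wild type, whereas knockout 3 lay below 3 of the 4. The means of 9.14 ± 0.14 and 9.34 ± 0.16 (SD, n = 4 each) differed by 0.20 (SE 0.11, limma adjusted p = 0.871), with an interval from 0.977 to 1.34-fold. The Pdp1 difference was 0.13 without wild type 1 and 0.27 without knockout 3.

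Pdp2, the second catalytic isoform, measured 4.40, 4.44, 4.49 and 4.16 in wild types and 4.45, 4.63, 4.703 and 4.53 in knockouts. Only knockout 1 lay within the wild-type range. Its means of 4.37 ± 0.15 and 4.58 ± 0.11 gave the largest difference of the 10, 0.21 (SE 0.10, limma adjusted p = 0.867), and it was 0.14 without wild type 4. Like Pdk3, Pdp2 lay below the median gene. Pdpr, the regulatory subunit of the phosphatase, measured 8.92, 9.35, 8.99 and 9.09 in wild types and 8.93 to 9.02 in knockouts. The knockouts were close together (SD 0.0432) and within the wild-type range. Its difference was -0.10 (95% interval -0.32 to 0.12) and -0.00989 without wild type 2, where it was highest.

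Other genes of pyruvate use were described from 6 lists of 71 genes, 67 of them measured. Over all genes 0 of the 67 passed (lowest limma adjusted p 0.802), and 32 were higher and 35 lower. At an unadjusted limma p under 0.05, 2 of the 67 passed, against 5.73% of all genes. Their median difference was -0.00543, beside -0.01 for all genes. Each list median given here changed sign when 1 or another array was left out.

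The remaining components of the complex, Pdhx (the E3-binding protein), Dld (the E3 dehydrogenase) and the testis form Pdha2, had a median of 0.0128. Pdhx measured 6.55, 6.89, 6.73 and 6.70 in wild types and 6.76, 6.78, 6.69 and 6.78 in knockouts (difference 0.04). The groups overlapped. Pdha2 stayed near the floor of the array on every sample, 1.91 to 2.45 in wild types and 2.02 to 2.39 in knockouts (difference -0.07).

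In the list of pyruvate supply and other pyruvate use, 6 of 13 measured genes were higher and 7 lower (median -0.06). Pcx, pyruvate carboxylase, which makes oxaloacetate from the same pyruvate, had the smallest limma p of the 67. It measured 7.42, 7.56, 7.14 and 7.55 in wild types and 7.21, 7.06, 6.90 and 7.14 in knockouts. Knockout 1 alone lay above the lowest wild type, wild type 3, and the difference was -0.34 (SE 0.11, limma adjusted p = 0.802). Slc16a7, a monocarboxylate carrier, measured 4.07, 3.78, 3.99 and 3.46 in wild types and 4.22, 4.09, 3.88 and 4.43 in knockouts. Knockout 3 lay among the wild types (difference 0.33, limma adjusted p = 0.861, and 0.21 without wild type 4). Slc16a7 was dim, with a mean of 3.99, below the median gene's 4.98. The mitochondrial pyruvate carrier gene Mpc1 measured 10.64 to 10.94 in wild types and 10.50 to 10.76 in knockouts.

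Lipoate is the cofactor bound to Dlat, and its attachment genes were higher for 3 and lower for 7 of 10 (median -0.02). Lias, lipoyl synthase, differed by 0.19 (limma adjusted p = 0.876) and Nfu1, an iron-sulfur carrier that serves it, by 0.18. The Nfu1 value was 0.28 without wild type 2, 0.30 without wild type 2 and knockout 4, and 0.0605 with its clusters averaged. Lias and Nfu1 were highest in wild type 2 and overlapped between genotypes. Of the related 2-oxoacid dehydrogenase genes, 6 of 9 were higher and 3 lower (median 0.03). Dlst, the E2 of the 2-oxoglutarate dehydrogenase complex, differed by 0.13 (0.0774 without wild type 1, 0.0789 without knockout 3), and Ogdh, its E1, by -0.11. Neither passed.

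Genes of regulators reported for the Pdk genes were higher for 5 and lower for 10 of 15 (median -0.02). Ppargc1a, which encodes the coactivator PGC-1alpha, measured 8.77, 9.01, 9.51 and 9.09 in wild types and 8.65, 8.81, 9.13 and 8.43 in knockouts. Knockout 3 exceeded 3 of the 4 wild types, and Ppargc1a differed by -0.34 (SE 0.17, limma adjusted p = 0.869). Without wild type 3 it differed by -0.20. The forkhead genes Foxo3 and Foxo1 differed by -0.17 (-0.0880 without wild type 4) and -0.14 (-0.25 without knockout 3 to -0.0219 without knockout 4), and Esrra, the estrogen-related receptor alpha gene, by -0.00543. Fasting and PPAR-responsive muscle genes were higher for 10 and lower for 7 of 17 measured (median 0.05). Plin2, a lipid droplet coat gene, differed by 0.18 (limma adjusted p = 0.869) and Hk2, the hexokinase of muscle, by -0.18 with the same adjusted p.

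**Figure D3:**
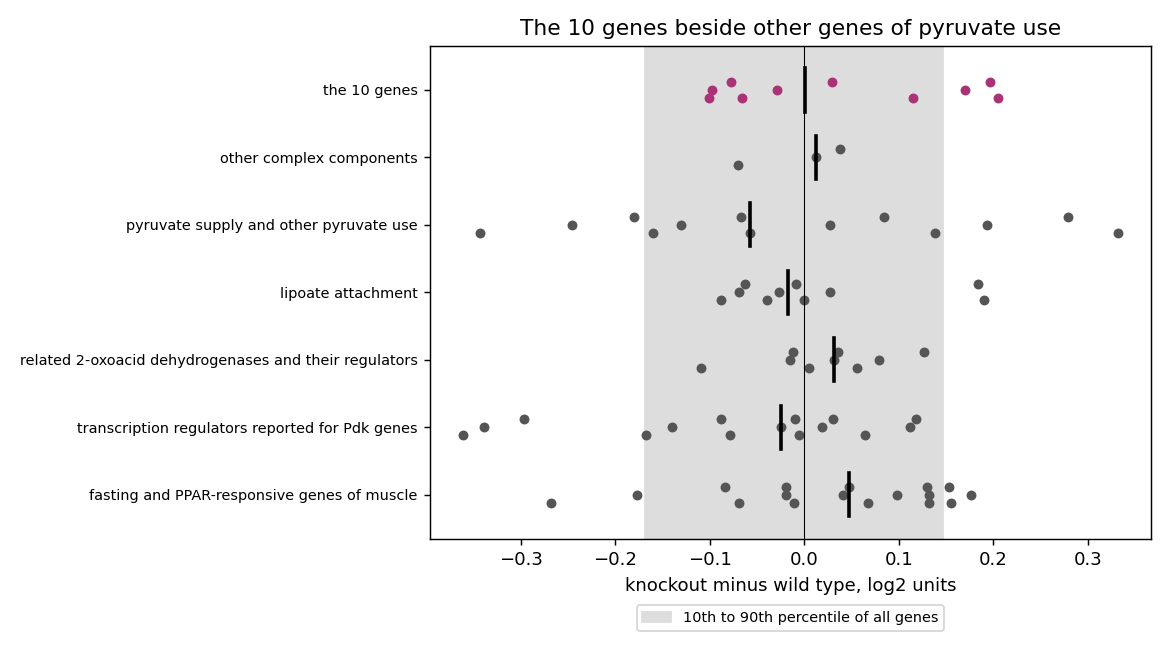
Knockout minus wild type in log2 units for the 10 genes and for 6 lists of related genes, each point a gene and each bar a list median. The grey band holds the 10th to 90th percentile of all genes (-0.17 to 0.15). The medians lie between -0.06 and 0.05.

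Slow-fibre marker levels ranged more widely over the 8 animals than any of the 10 genes. The mean of 8 slow-fibre markers was 6.33, 8.37, 6.39 and 8.23 in wild types 1 to 4 and 7.44, 8.62, 9.06 and 5.51 in knockouts 1 to 4. Both genotypes thus held slow-rich and slow-poor samples. In a fit chosen after these values were seen, each gene was given a slope on this mean beside genotype. Slopes were above 0 for 9 of the 10 genes. The share above 0 over all genes was not computed, so this count has no background to be read against. For the slope, 0 of the 10 passed (limma adjusted p from 0.973 to 0.9999), where 0.0652% of all genes passed, 8 of them the marker genes themselves. Pdha1 had a slope of 0.0688 (SE 0.0339) and Pdhb of 0.0838 (SE 0.0423) per log2 unit of the marker mean. Pdp1 had a slope of -0.00238 (SE 0.0462). With this term in the fit the Pdk4 difference was 0.16 and the Pdp2 difference 0.20.

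**Figure D4:**
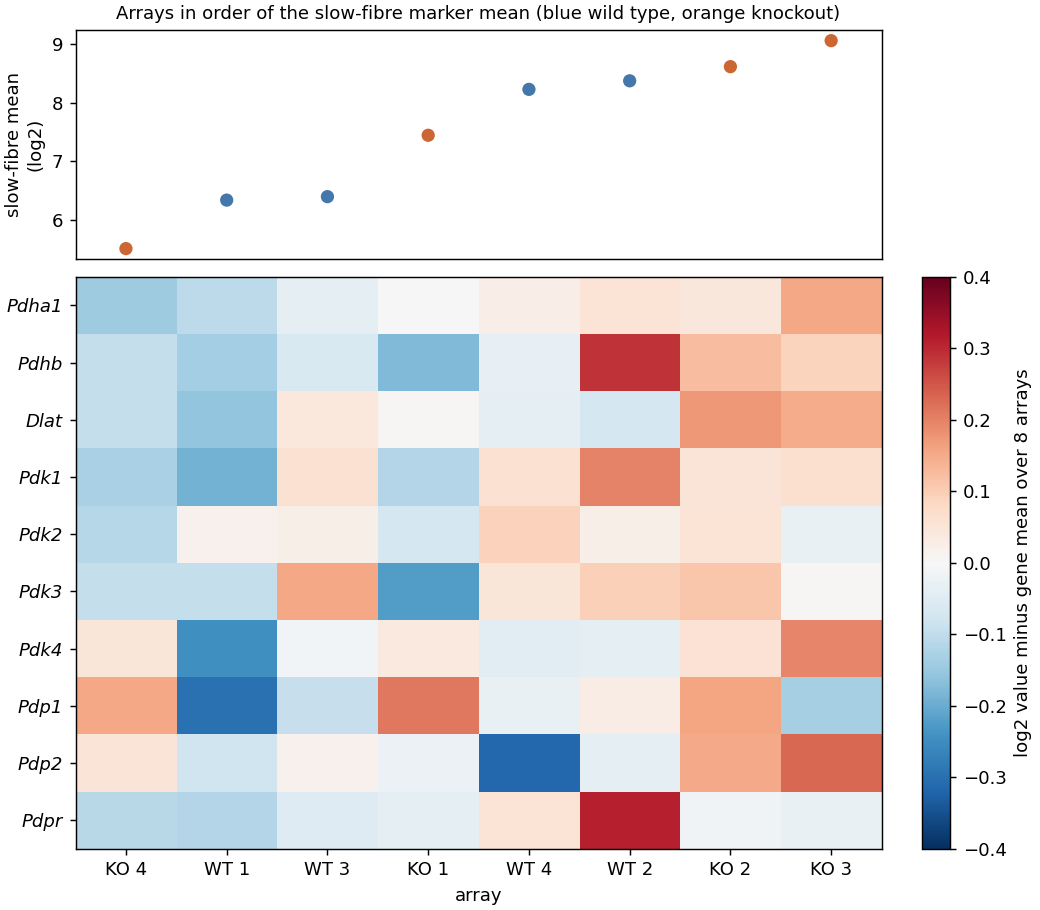
The upper panel gives the mean log2 level of 8 slow-fibre markers on each array, in rising order from knockout 4 (5.51) to knockout 3 (9.06). The lower panel gives each gene's log2 value minus its mean over the 8 arrays. Pdha1 runs from its lowest value in knockout 4 to its highest in knockout 3, and Pdhb and Pdpr are highest in wild type 2.

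Genes whose values followed Pdk4 from array to array were looked for among 9968 other genes above the median level, after each genotype's mean was taken away, over 8 arrays. The highest Pearson correlations were those of Tmsb4x (0.962), Hspa9 (0.957), Aldh9a1 (0.955), Cited2 (0.943) and Cyb5a (0.937), and the lowest those of Pold2 (-0.976), Gkap1 (-0.947) and Arfgap3 (-0.944). Spearman's rho ranged from 0.881 to 0.976 for the first group and from -0.976 to -0.857 for the second. These are extremes picked from many genes over few arrays, given without a test. Without wild type 1, the low end of the Pdk4 range, the first group ranged from 0.838 to 0.917 and the second from -0.967 to -0.846. After median centring it was -0.750 for Pold2, -0.640 for Gkap1 and -0.512 for Arfgap3, and Gkap1 was at -0.615 with its clusters averaged. Hspa9, a mitochondrial chaperone gene, was lowest in wild type 1 (9.77) and highest in knockout 3 (10.05), the arrays lowest and highest for Pdk4.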

How the data were processed

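Log2 expression values of 8 whole-transcript arrays were used as the authors deposited them, which the submitters' processing notes credit to RMA and Affymetrix Expression Console; for settings, version and genome build, the entry is not given in the sources used here. RMA corrects background, equalises array distributions and summarises the log2 values of the probes. Differences on arrays can be compressed for dim and very bright signals. Of 35556 transcript clusters, 21789 carried 1 gene symbol in the platform annotation and 21698 of these matched RefSeq by Entrez number. The cluster with the highest mean stood for each of 19938 genes, with no filter on dim ones. No 2 arrays were identical. Knockout and wild type, grouped by the genotype in the titles, were compared with lmFit and eBayes (limma 3.58.1, R 4.3.3) over all genes, with Benjamini-Hochberg adjustment and a threshold of 0.05; the procedure was tested on simulated data, where it found 49.6% of genes given a log2 change of 0.5 and 94.2% of those given 1. The simulation drew independent normal noise for each gene and changed 200 genes at once, whereas 3 genes passed in these data. The recovered shares therefore do not give the chance of finding such a change here. Residual degrees of freedom were 6, with 6.26 from the prior. Named genes were the 10 genes, Kat2a, the 2 genes of smallest p in each list where none passed, Ppargc1a, Foxo1, Esrra, 4 cell type markers and the 8 genes most and least correlated with Pdk4; Mpc1 was added after its values were seen. The 10 genes and the lists were chosen with earlier results of these data known. Motif letters were chosen after the expression values were seen. Alternatives were quantile normalization, median centring, dropping dim genes, averaging clusters, array weights, a robust prior with an intensity trend, a replicate block, left-out arrays and a looser threshold; the slow-fibre covariate was added after the data were seen. Plots used matplotlib 3.10.9 (Python 3.11.15).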

Additional observations from a re-analysis of the deposited data

Results flagged for a closer look

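Within groups of 4 arrays, a value was singled out where its gap to the nearest other value exceeded Dixon's 95% critical share of the group's range, which chance gives in about 1 of 20 groups. This held for 9 of 74 groups examined, 4 of them among the 20 groups of the 10 genes. Pdk4 was lowest in wild type 1 (11.40, with 11.60 next) and highest in knockout 3 (11.84, with 11.70 next). Pdp1 was lowest in knockout 3 (9.11, with 9.40 next), so this animal had the highest Pdk4 and the lowest Pdp1 of its genotype. Pdk2 was highest in wild type 4 (10.88, with 10.81 next), within a group whose SD was 0.0358. Of the other named genes, wild type 1 was lowest for Dlst (8.48), Hspa9 (9.77) and Cyb5a (6.94) and highest for Pold2 (7.76), and knockout 3 was lowest for Gkap1 (6.07). Hspa9, Cyb5a, Pold2 and Gkap1 were picked for their correlation with Pdk4, so they share its extreme arrays by choice.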

How the results depend on the processing

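In each of 18 alternative fits 0 of the 10 genes passed over all genes (lowest limma adjusted p 0.639), as at an adjusted p under 0.1, where 16 of all genes passed. The count over all genes, 3 as reported, was 11 of 14953 without the dimmest 25% and 13 of 9969 without the dimmest 50%. It was 17 with an intensity trend and robust prior together, 1 without wild type 2 and knockout 4, and 0 to 5 when 1 array was left out. At an unadjusted p under 0.05 the count was 645 of 9969 (6.47%) without the dimmest 50%, beside 1142 of 19938 (5.73%) as reported. There 2 of the 10 genes passed after quantile normalization (Pdk4, Pdp2; 6.31% of all genes), 2 with array weights (Pdk4, Pdp1; 6.07%), 1 with the trend and robust prior (Pdk4; 5.83%), and 0 to 2 when 1 array was left out (4.19 to 7.64%). Groups of 1 to 2 genes then did not overlap, beside 1100 to 1595 of the 19938 genes: Pdk4, whose separated groups cannot come to overlap by losing an array, and Pdp2 (without wild type 3 or knockout 1), Pdk2 (knockout 2) or Pdp1 (knockout 3). The labels number the replicates but do not say if equal numbers pair the animals. Correlations of deviations were -0.103 to 0.222 over 4 pairs. Among arrays of the other genotype, 4 of 8 arrays were closest to their own number, which does not settle the question. With the replicate numbers as a block, 0 of all genes passed. Kat2a then had an adjusted p of 0.113, and it missed the threshold without any 1 of 6 arrays, while its difference stayed between -0.68 and -0.64 in all fits. Dlat, Pdk2, Pdk3, Pdk4, Pdp1 and Pdp2 kept their sign in all fits that held them. Pdhb turned to 0.00382 after quantile normalization and 0.0434 with array weights, and Pdk1 to 0.00401 with array weights. Without wild type 2 and knockout 4, Pdhb was 0.0891, Pdk1 0.0215, Pdpr 0.0111 and Foxo1 0.0424. With 1 array left out, Pdha1 ran from -0.0167 to 0.0817 and Pdhb from -0.0795 to 0.0623. Pdha2 then ran from -0.172 to 0.00807, Pdhx from -0.0187 to 0.0956, Tmsb4x from -0.0406 to 0.0895, Cited2 from -0.165 to 0.0228 and Pold2 from -0.0743 to 0.0140. Esrra ran from -0.0485 to 0.0223, and was 0.00511 after quantile normalization, 0.0317 with array weights and 0.0245 without wild type 2 and knockout 4. The list medians, in the order of the report, reached -0.0428 (without knockout 3), 0.000783 (wild type 1), 0.0250 (wild type 2), -0.0390 (wild type 1), 0.00531 (wild type 2) and -0.0399 (knockout 3), each with the opposite sign, and that of pyruvate supply was 0.0325 without wild type 2 and knockout 4. The causes were not tested. Dim signal limits Pdk3 and Pdp2, which the filters removed. Pdk4 and Pdk2 were brighter than 99.8% and 99.4% of genes, where compression of very bright signals may make differences smaller. Its size here was not tested.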

Other observations

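The balance of Pdk4 against the other kinase genes within each array was examined after the values above were seen, so it carries no test. A within-array difference of log2 values sets the changes of both genes side by side and does not tell which gene is more abundant. Pdk4 minus Pdk2 was 0.597, 0.798, 0.827 and 0.722 in wild types 1 to 4 and 0.970, 0.860, 1.08 and 1.02 in knockouts 1 to 4, so every knockout lay above every wild type (difference of means 0.25). Pdk4 minus Pdk1 differed by 0.24, also without overlap. Pdk2 minus Pdk1 differed by -0.01 and overlapped. Ratios to the dim Pdk3 are not given. The Pdk4 to Pdk2 difference lay between 0.20 and 0.29 when 1 array was left out. Both ratios share the Pdk4 values and are not separate evidence. Pdk4 already separated, and Pdk2 and Pdk1 had differences below 0, so the lack of overlap followed in large part from values already seen. How often other gene pairs separate was not computed. Neither Pdk4 nor Pdk2 passed over all genes (limma adjusted p = 0.869 and 0.926).

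Ldhb, the lactate dehydrogenase form of oxidative muscle and a member of the pyruvate list, ranged most widely among the genes of pyruvate use, and is named here after its values were seen. It measured 7.46, 8.25, 8.60 and 8.76 in wild types and 7.57, 8.94, 9.23 and 6.35 in knockouts, lowest in knockout 4 and highest in knockout 3, the arrays with the lowest and highest slow-fibre mean.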
